A study of Mus musculus with 4 samples.

Results

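A set of 10 pericyte genes was examined in bulk tumor RNA: Notch3, Heyl, Rgs5, Cspg4, Pdgfrb, Abcc9, Kcnj8, Mcam, Anpep and Higd1b. They were taken by gene symbol and make up 10 of the 15424 genes in the deposited expression table, and all 10 symbols are listed there. The set was put together with earlier results of these data in view, including the low Notch3 and Heyl values, so its values are a description and carry no test. R728T1 cells were transplanted subcutaneously into nude mice, a strain without a functional thymus, to form the tumors. R728T1 is a mouse line from an Rb/P53 model that the labels name non-SMCs and assign to small cell lung cancer. The control group (shLuc) received a short hairpin RNA to luciferase, which the mouse lacks, and the knockdown group (shTaz) received one to Taz. Each group has 2 labelled samples, and the labels give neither the age nor the number of mice and do not say whether R728T1 is 1 clone. Tumor and host cells are both of mouse origin, so the reads do not show which of them made a transcript.

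Pericytes are the mural cells that wrap capillaries and small vessels, inside the basement membrane they share with the endothelium. Endothelial PDGF-B recruits them through the receptor PDGFRB, and Jagged ligands on neighbouring cells activate NOTCH3 on their surface. The released intracellular domain of NOTCH3 joins RBPJ and Mastermind proteins in the nucleus to switch on target genes such as Heyl. The other genes encode a coat proteoglycan (Cspg4, NG2), an adhesion molecule (Mcam, CD146), a surface peptidase (Anpep, CD13), an inhibitor of G protein signaling (Rgs5), the subunits of a potassium channel that closes with ATP (Kcnj8 and Abcc9) and a small membrane protein marking pericytes in several tissues (Higd1b). None of these genes is strictly confined to pericytes: Pdgfrb is also a gene of fibroblasts, Mcam of endothelium and Anpep of myeloid cells and fibroblasts.

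The pericyte genes did not move as a block between the columns. Notch3, Heyl and Higd1b were markedly lower in the shTaz column, Kcnj8, Cspg4 and Pdgfrb were lower by less, Anpep was equal, and Mcam, Abcc9 and Rgs5 were higher. Levels are in FPKM, the authors' fragment counts divided by transcript length and library total, with 1 column for each group. There are no replicate values, so no SD or p-value can be given and no difference has a replicate check. In bulk tumors, fewer cells of a type and less RNA per cell cannot be told apart.

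Differences are on the log2 scale after adding 1 FPKM to each level, shTaz against shLuc. On this scale a change at levels around 1 FPKM looks smaller than it is, and a difference of 1 or more is named 2-fold. A mean of 1 FPKM or more was required, which 11650 genes met, and their median difference was 0.12. Of the 10 members 9 passed this filter, and Abcc9 did not. Heyl, Notch3 and Higd1b were under 1 FPKM in the shTaz column and passed only through the shLuc column, so they could enter only with a difference. Of the 9, 3 were 2-fold lower (Notch3, Heyl and, with 1 FPKM added to its 0, Higd1b) where 3.25% of all genes tested were, and 1 was 2-fold higher (Rgs5) where 3.96% were. Among the 4332 genes with a mean from 1 to 5 FPKM, the range that holds 5 of the 9, the shares were 3.79% lower and 5.59% higher. Because the members were picked from this same contrast, nothing is read from these counts.

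**Figure D1:**
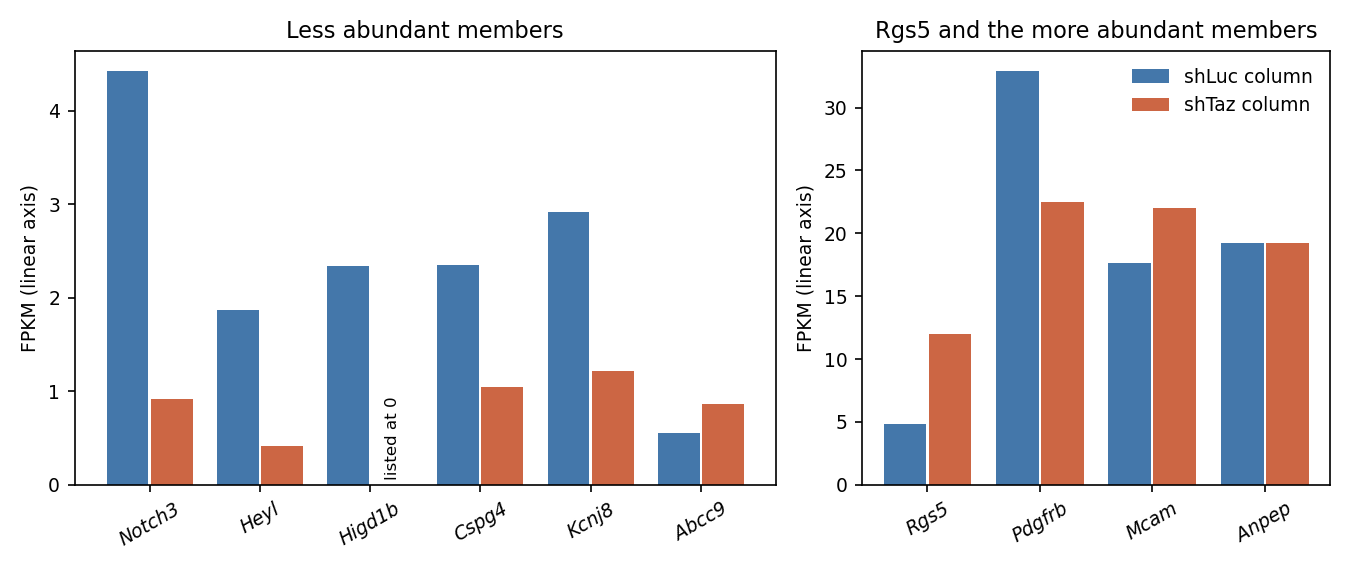
FPKM of each member in the shLuc (blue) and shTaz (orange) columns, on linear axes that start at 0 and differ between the panels. Bars are the authors' single value per group, without error; Notch3 stands at 4.42 and 0.918 FPKM, Higd1b is listed at 0 in the shTaz column, and Rgs5 stands at 4.84 and 12.0 FPKM.

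Notch3 (Entrez 18131, chromosome 17, 32120820 to 32166852, minus strand of mm10) encodes the Notch receptor of mural cells. Its level was 4.42 FPKM in shLuc and 0.918 FPKM in shTaz, which is 20.8% of the control. The log2 difference was -1.50, and 1.18% of the genes tested lay lower. Heyl (Entrez 56198, chromosome 4, 123233556 to 123249875, plus strand), a basic helix-loop-helix repressor and target of NOTCH3, was at 1.86 and 0.415 FPKM, or 22.3% of the control value. Its difference of -1.02 was just past the 2-fold line, and 3.10% of genes lay lower. Both genes were put in the set with these low values known, so nothing is read from their like fractions of the control. Gm17276, an antisense gene model, overlaps Notch3 and is not listed, and without a stated strand setting its reads cannot be told apart from those of Notch3.

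The other Notch receptors and ligands did not share this level of reduction. Among the receptors, Notch1 was at 3.15 and 2.87 FPKM and Notch2 at 18.0 and 18.7 FPKM, shLuc first, while Notch4, a receptor of endothelium, was at 7.77 and 4.31 FPKM. The Notch4 difference was -0.72, -0.17 with the GC trend removed and -0.42 with the GC and length trends removed. Within each column, where a scaling of the whole column cancels out, the ratio of Notch3 to Notch2 was 0.245 in shLuc and 0.0491 in shTaz. The ligand genes Jag1 (4.13 and 5.12 FPKM), Jag2 (5.26 and 3.69 FPKM) and Dll4 (7.37 and 6.16 FPKM) stayed under 2-fold, Dll1 was under 1 FPKM in both columns, and Dll3 is not listed. Receptor and ligand transcripts other than Notch3 therefore remained within 2-fold of the control column.

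Of 11 tested genes that process or glycosylate Notch, none was 2-fold different (7.21% of all genes), with differences from -0.88 to 0.80. Psenen, a subunit of gamma-secretase, was at 109 and 58.3 FPKM, a difference of -0.88. The Psenen difference was -1.02 with median-ratio scaling, -0.72 with the GC trend removed and -0.28 once GC and length trends had been taken out. The shedding protease genes Adam10 (9.41 and 17.1 FPKM) and Adam17 (15.4 and 24.4 FPKM) and the gamma-secretase gene Ncstn (71.7 and 104 FPKM) were higher. Rfng (24.3 and 14.5 FPKM) and Pofut1 (5.60 and 3.70 FPKM), which glycosylate Notch, were lower. Removal of the GC trend took Adam10 from 0.80 to 0.42, Adam17 from 0.63 to 0.36 and Ncstn from 0.53 to 0.58. It took Rfng from -0.71 to -0.26 and Pofut1 from -0.49 to -0.44. The 4 nuclear partner genes were above the median of all genes as deposited. Rbpj, the DNA-binding partner of every Notch receptor, was at 8.04 and 16.7 FPKM, with a difference of 0.97, or 0.53 with both trends removed. The Mastermind genes Maml2 (2.05 and 3.84 FPKM) and Maml3 (8.03 and 10.6 FPKM) were higher by less. Among other target genes, Hey1 was at 2.68 and 1.36 FPKM, Hes1 at 21.9 and 17.0 FPKM and Nrarp at 5.43 and 5.996 FPKM, so that the ratio of Heyl to Hey1 was 0.695 in shLuc and 0.306 in shTaz. The Hes1 difference of -0.34 was -0.09 with the length trend removed. Hes7, under the filter at 1.31 and 0.350 FPKM, was lower by a factor near that of Heyl. Hey2 was at 0.0926 FPKM and listed at 0, and Hes5 and Dtx1 are not listed. Of the Notch inhibitors, Numbl was at 28.7 and 14.9 FPKM, Numb at 1.73 and 3.10 FPKM and Itch at 3.59 and 6.20 FPKM. Their differences of -0.90, 0.59 and 0.65 became -0.70, 0.49 and 0.28 on removal of the GC trend.

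Without Notch3 and Heyl, 27 Notch pathway genes passed the filter, while 5 listed genes, Hes7 and Hey2 among them, did not pass it. Of the 27, 0 were 2-fold lower (3.25% of all genes) or higher (3.96% of all genes). In a list of this size 0 is near those shares, and nothing is read from it. The median difference of the 27 was 0.05, below the 0.12 of all genes. It ranged between -0.08 with median-ratio scaling and 0.24 with the trend of GC content removed. Median-ratio scaling made 2 of these genes 2-fold lower (4.23% of all genes) and removal of the length trend made 1 (2.76% of all genes). The list can therefore not be given a direction.

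Pdgfrb and its ligand gene Pdgfb were lower to a smaller degree than Notch3. Pdgfrb (Entrez 18596), the receptor through which pericytes are recruited, was the most abundant member in both columns, at 32.9 FPKM in shLuc and 22.5 FPKM in shTaz, or 68.4% of the control value. Its difference was -0.53, and 11.6% of genes lay lower. Pdgfb, which encodes its main ligand, was at 44.9 and 24.01 FPKM, a difference of -0.87. With the GC trend removed the Pdgfb difference was -0.38, and -0.44 with both trends removed. Pdgfa was at 92.5 and 78.1 FPKM. The sister receptor gene Pdgfra, typical of fibroblasts, was instead at 8.75 and 13.5 FPKM, so the ratio of Pdgfrb to Pdgfra was 3.76 in shLuc and 1.66 in shTaz. Pdgfc was at 6.63 and 7.66 FPKM, and Pdgfd is not listed. None of the 5 genes tested in this family was 2-fold different as deposited, where 7.21% of all genes were. Median-ratio scaling took Pdgfb just past 2-fold, to -1.01. The ratio of Notch3 to Pdgfrb was 0.134 in shLuc and 0.0408 in shTaz, so these receptor genes differed unequally.

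Kcnj8 (Entrez 16523, 142564837 to 142571614) and Abcc9 (Entrez 20928, 142587862 to 142702315) encode the Kir6.1 pore and the SUR2 regulatory subunit of the vascular ATP-sensitive potassium channel, and they are neighbours on the minus strand of chromosome 6, with 16.2 kb between them. Kcnj8 was at 2.92 FPKM in shLuc and 1.21 FPKM in shTaz, or 41.6% of the control value. Its difference of -0.82 was short of 2-fold because 1 FPKM is added to each level. Abcc9 was under 1 FPKM in both columns and higher in shTaz, at 0.554 and 0.862 FPKM. The ratio of Kcnj8 to Abcc9 was 5.26 in shLuc and 1.41 in shTaz. Of the alternative subunits, Kcnj11 was listed at 0 and at 0.145 FPKM, and Abcc8 is not listed. A difference between values this low has no known counting error here, since the depth is unknown.

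The surface genes were split. Cspg4 (Entrez 121021, chromosome 9, 56865033 to 56899870, plus strand), the NG2 proteoglycan, was at 2.35 FPKM in shLuc and 1.05 FPKM in shTaz, or 44.6%, with a difference of -0.71. Mcam (Entrez 84004, chromosome 9, 44134469 to 44142727, plus strand), which encodes CD146, was higher, at 17.6 and 22.0 FPKM, with a difference of 0.31. Anpep (Entrez 16790, chromosome 7, 79821803 to 79861059, minus strand), which encodes aminopeptidase N, was at 19.2 FPKM in both columns. Of these genes the least abundant was the one that was lower.

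Higd1b and Rgs5 stood at opposite ends. Higd1b (Entrez 75689, chromosome 11, 102835849 to 102838040, plus strand) was at 2.34 FPKM in shLuc and listed at 0 in shTaz, so no fold is given. Of the 11650 genes tested, 37 (0.318%) were listed at 0 in shTaz. Its transcript is the shortest of the members, at 735 bases in the GENCODE annotation. Rgs5 (Entrez 19737, chromosome 1, 169655501 to 169695813, plus strand), a GTPase-activating protein often used to mark pericytes, was at 4.84 FPKM in shLuc and 12.0 FPKM in shTaz, or 249% of the control value. The difference was 1.16, and 2.15% of genes lay higher. The ratio of Rgs5 to Notch3 was 1.09 in shLuc and 13.1 in shTaz, a 12.0-fold change between genes chosen with these values known. A scaling of a whole column cancels out of this ratio, but the trend with GC content does not. With that trend removed the Rgs5 difference was 0.76 and the Notch3 difference -1.03, against 1.16 and -1.50 as deposited.

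The upstream sequences of both ends of the range and of the neighbouring channel genes are printed to show what lies before genes that differ in direction. They are the 250 bases before the RefSeq start site on GRCm38.p6, 5′ to 3′ on the gene's strand, from a table that matched 7 of the 10 members; Heyl, Higd1b and Pdgfrb had no entry. Capitals mark matches to the core letters TGGGAA, bound by RBPJ, or GGAATG, bound by the TEAD factors that TAZ works through, searched on both strands together with the CArG box of serum response factor.
Notch3, chr17:32166891-32167140, minus strand: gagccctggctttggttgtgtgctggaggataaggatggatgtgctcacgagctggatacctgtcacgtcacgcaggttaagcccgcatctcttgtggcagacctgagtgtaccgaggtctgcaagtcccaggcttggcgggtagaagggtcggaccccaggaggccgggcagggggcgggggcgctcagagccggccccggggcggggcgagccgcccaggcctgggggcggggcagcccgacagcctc
Rgs5, chr1:169655251-169655500, plus strand: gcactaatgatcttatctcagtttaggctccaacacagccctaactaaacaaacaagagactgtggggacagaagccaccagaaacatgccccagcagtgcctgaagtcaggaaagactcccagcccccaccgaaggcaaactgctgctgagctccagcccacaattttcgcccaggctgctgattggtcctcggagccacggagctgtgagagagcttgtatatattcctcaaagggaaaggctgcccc
Kcnj8, chr6:142571615-142571864, minus strand: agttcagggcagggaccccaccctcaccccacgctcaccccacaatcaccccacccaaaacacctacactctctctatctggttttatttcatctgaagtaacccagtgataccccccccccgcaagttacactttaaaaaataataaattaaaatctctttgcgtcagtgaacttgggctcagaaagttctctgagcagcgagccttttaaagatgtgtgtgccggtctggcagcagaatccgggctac
Abcc9, chr6:142702275-142702524, minus strand: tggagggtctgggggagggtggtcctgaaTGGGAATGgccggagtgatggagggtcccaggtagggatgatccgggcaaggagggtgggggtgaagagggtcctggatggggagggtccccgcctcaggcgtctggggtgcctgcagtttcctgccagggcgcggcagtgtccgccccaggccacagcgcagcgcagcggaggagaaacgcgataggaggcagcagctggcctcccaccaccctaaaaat
The Abcc9 window holds 1 RBPJ core and 1 TEAD core, which overlap, 221 and 219 bases before the start site. The windows of Notch3, Rgs5, Kcnj8, Cspg4, Mcam and Anpep hold none of the 3 motifs. Of 32851 promoter windows of the same length, 21.6% hold the RBPJ core, 12.6% the TEAD core and 1.47% the CArG box. A match to such short letters is a description of the sequence and not a binding site, and windows of this length leave out distal elements. The GC content of the 4 printed windows was 49.2% before Kcnj8, 53.6% before Rgs5, 66.8% before Abcc9 and 68.8% before Notch3.

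Base composition of the transcripts moved with the differences. Across the genes tested, the Spearman correlation of the difference with the GC content of the longest transcript was -0.56 (across genes, which are not independent replicates). Rgs5 has the lowest GC content of the members, 41.1%, and fell in the lowest of 10 groups of genes by GC content, whose median was 0.56 and in which 12.6% of genes were 2-fold higher. Notch3 (59.6% GC) and Cspg4 (59.2% GC) were in the highest group, where the median was -0.38 and 2-fold lower genes made up 9.76%. Kcnj8, Mcam, Anpep and Higd1b shared the seventh group, with GC contents from 52.4% to 53.7% and a group median of -0.03. Kcnj8 and Higd1b, the less abundant of these, were lower in shTaz, Mcam was higher and Anpep was equal. With the GC trend removed, Notch3 was at -1.03, Heyl at -0.78, Kcnj8 at -0.68, Pdgfrb at -0.31, Cspg4 at -0.26, Anpep at 0.14, Mcam at 0.47 and Rgs5 at 0.76. Notch3 and Higd1b then remained 2-fold lower (2.44% of all genes in that setting) and no member was 2-fold higher (2.29% of all genes).

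**Figure D2:**
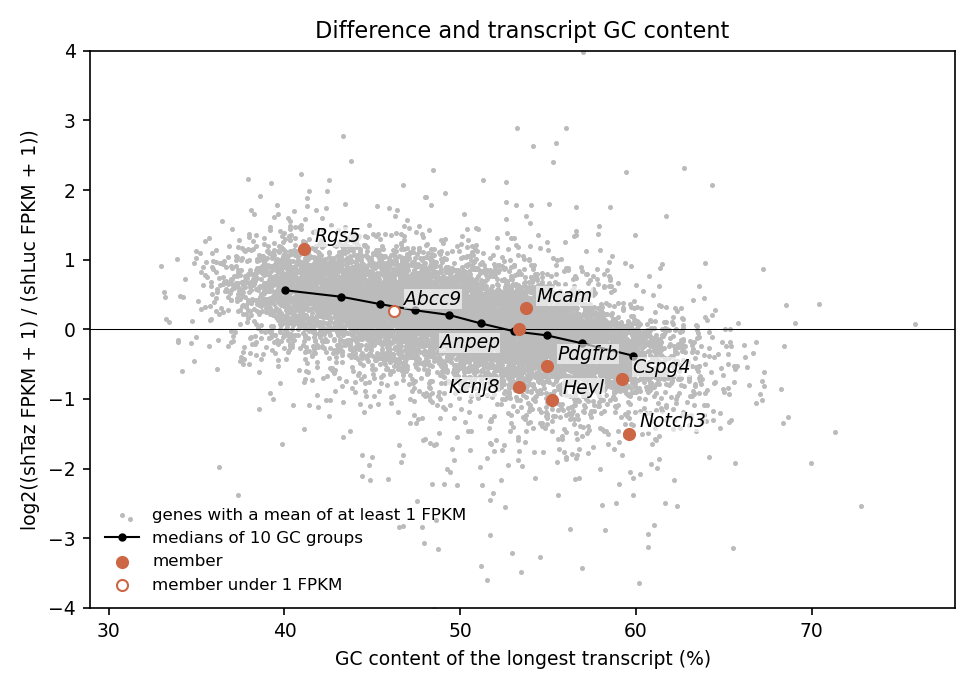
Difference between the columns (log2, vertical axis) against the GC content of the longest transcript (%, horizontal axis) for genes averaging 1 FPKM or more (grey), with the medians of 10 GC groups (black) and the members (orange; open for Abcc9, under 1 FPKM). Rgs5 lies above and Notch3 below the medians at their GC content; Higd1b, listed at 0 in shTaz, is not drawn, and 13 genes lie outside the axis.

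Other mural genes, from a list of 20 that excludes the members, showed no common direction. Of 12 tested, 1 was 2-fold lower (3.25% of all genes) and 0 higher (3.96% of all genes), and their median difference was -0.11. The gene past 2-fold was Foxs1, a forkhead factor gene expressed in perivascular cells, at 15.4 FPKM in shLuc and 3.70 FPKM in shTaz, a difference of -1.81. Foxs1 was still 2-fold lower after removal of the GC trend (-1.36) or of both trends (-1.12). Ndufa4l2, a mitochondrial protein gene of pericytes and of hypoxic cells, was at 6.68 and 3.13 FPKM, a difference of -0.90. Its difference was past 2-fold with median-ratio scaling (-1.01) and quantile normalization (-1.08). It was -0.37 with the GC trend removed and -0.07 once GC and length trends had been taken out. Vtn, which encodes vitronectin, was at 1.12 FPKM and listed at 0. It is 1 of 8 genes of the list under the filter, which held values in both directions. In the other direction, Tbx18, a mural transcription factor gene, was at 1.18 and 2.51 FPKM, with a difference of 0.68, or 0.41 with both trends removed. Angpt1, the angiopoietin that mural cells supply to endothelium, was at 5.87 and 10.3 FPKM, and its difference of 0.72 was 0.27 with the GC trend removed. These genes, like the members, thus included values on both sides of the median of all genes.

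Smooth muscle genes were split too. Of 10 tested, 1 was 2-fold lower (3.25% of all genes) and 1 higher (3.96% of all genes), with a median of -0.05. Tagln, the SM22 contractile gene, was at 11.1 FPKM in shLuc and 2.82 FPKM in shTaz, and Acta2, smooth muscle actin, at 50.7 and 29.5 FPKM. Des, desmin, a filament gene of pericytes and of all muscle, was at 0.586 and 3.004 FPKM, and passed the filter only through shTaz. Myh11, the defining heavy chain of mature smooth muscle, was at 0.279 and 0.218 FPKM, and Lmod1 and Synpo2 were each far below 1 FPKM in shLuc and listed at 0 in shTaz. Myh11, Lmod1 and Synpo2 were thus near the bottom of the measured range in both columns.

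Endothelial genes, which mark the vessels that pericytes cover, did not reach 2-fold as deposited. Of 16 listed genes 13 were tested and none was 2-fold different (7.21% of all genes), with a median of -0.10. Where a mean of 5 FPKM was required, the list median was -0.53. Plvap, a gene of fenestrated endothelium, was at 67.2 and 36.2 FPKM, the tight junction gene Cldn5 at 18.2 and 10.3 FPKM, and Tie1 and Eng were also lower (12.9 and 7.45 FPKM, 15.7 and 9.47 FPKM). Removal of the GC trend made these differences smaller: Plvap went from -0.88 to -0.35 and Cldn5 from -0.76 to -0.25. Tie1 went from -0.72 to -0.36 and Eng from -0.67 to -0.31. With median-ratio scaling 1 was 2-fold lower (4.23% of all genes), Plvap, at -1.01. Cdh5, the VE-cadherin gene, was nearer to equal, at 16.1 and 15.0 FPKM and Pecam1 at 11.5 and 10.8 FPKM. The summed level of the list was 198 FPKM in shLuc and 139 FPKM in shTaz, or 70.1%, against 85.3% for the sum over all genes. Set against Cdh5 in the same column, Notch3 had a ratio of 0.274 in shLuc and 0.0612 in shTaz, Pdgfrb 2.04 and 1.50, and Rgs5 0.2999 and 0.801. Set against Plvap, Notch3 had a ratio of 0.0658 and 0.0254, Pdgfrb 0.489 and 0.622, and Rgs5 0.07199 and 0.333. The side to which Pdgfrb moved relative to endothelium thus turned with the gene it was set against. Notch3 (-1.50) and Rgs5 (1.16) were chosen with their values known and lay outside the range of the endothelial list (-0.88 to 0.45). Their moving to the same side for both genes was therefore given in advance, and nothing is read from it. The trend with GC content does not cancel out of these ratios. How far the vessel content of the tumors entered these values was not tested.

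Fibroblast genes were lower in part, and some members are also genes of fibroblasts. Of 14 tested, 8 were 2-fold lower, where 3.25% of all genes were, 0 were 2-fold higher and 6 were under 2-fold. The summed level of this list was 2440 FPKM in shLuc and 1692 FPKM in shTaz, or 69.3%, against 85.3% for all genes. Several genes of this list were already known to be low in shTaz when it was written, so its count is not independent evidence. The lowest were Clec3b (15.7 and 0.335 FPKM), Sfrp2 (17.9 and 1.05 FPKM), Dpt (18.4 and 1.16 FPKM) and Dcn (13.8 and 1.85 FPKM). Col3a1 was equal (372 and 371 FPKM), and Fbln2 (215 and 301 FPKM) and Pdgfra were higher. No defining gene of the list was at 0 in either column. The part of fibroblast transcripts in the Pdgfrb and Anpep values was not tested. Macrophage genes, which bear on Anpep, had 0 of 10 past 2-fold (7.21% of all genes), and summed to 5124 and 4977 FPKM, or 97.1%. Mrc1 (12.3 and 20.7 FPKM) and Itgam (29.1 and 45.7 FPKM) differed most.

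**Figure D3:**
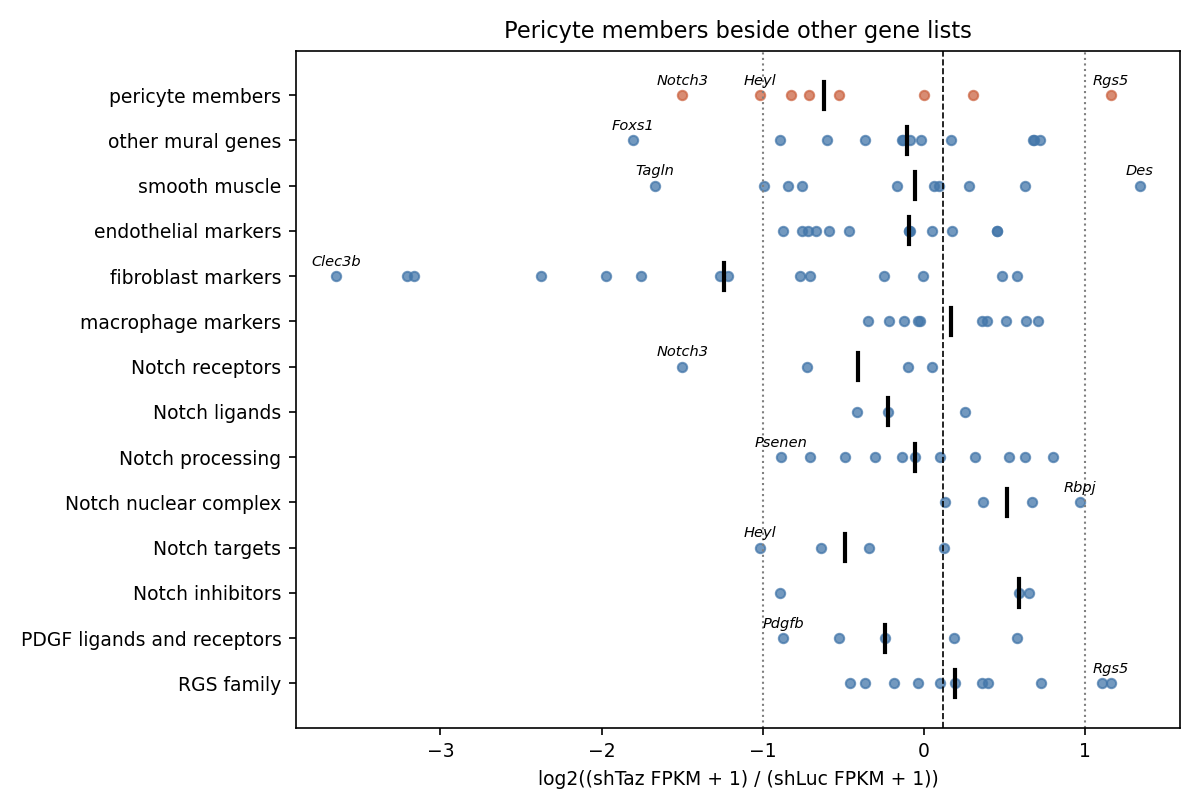
Differences (log2, horizontal axis) of the tested genes above 0 in both columns, 1 point for each gene, in the member set (orange) and in the other lists (blue). Black bars are list medians, the dashed line is the median of all genes (0.12) and dotted lines mark 2-fold; the members run from Notch3 (-1.50) to Rgs5 (1.16), and their median without Higd1b is -0.62.

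Over the 9 tested members the median difference was -0.71, or -0.62 without Higd1b, against 0.12 for all genes. Of the 9, 7 lay below the median of all genes. The summed FPKM of all 10 was 89.0 in shLuc and 80.2 in shTaz, or 90.1%. The sum over all genes in the table was 85.3% of the control, so 90.1% is not a fall relative to the table. The members' sum was carried by Pdgfrb, Anpep, Mcam and Rgs5, so the total hides the larger differences of the less abundant genes. With a pseudocount of 0.1 FPKM, which weighs low genes more, 5 members were 2-fold lower (4.7% of all genes), Kcnj8 (-1.20) and Cspg4 (-1.09) among them, and Notch3 was at -2.15. Heyl was short of 2-fold when the GC trend was removed (-0.78) and when the trends of GC content and length both were (-0.93). Notch3 was 2-fold lower in each of the 7 alternatives that kept it, from -2.15 to -1.03. Among the 7, leaving out the filter cannot change the difference of a gene, so its -1.50 there was given in advance. Notch3 was chosen with its low value known, so this range is a description.

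**Figure D4:**
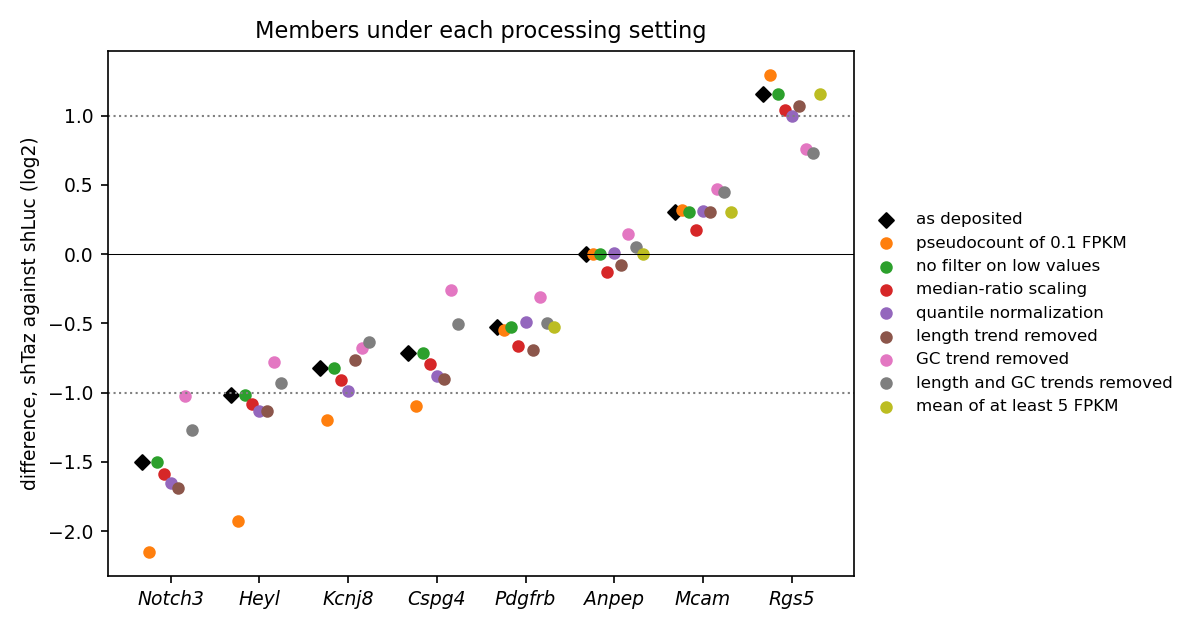
Difference of 8 members (log2, vertical axis) as deposited (black diamonds) and under each of 8 processing alternatives (coloured points); dotted lines mark 2-fold. Notch3 lies between -2.15 and -1.03 and Rgs5 between 0.73 and 1.30; less abundant genes have no point for the alternative that needs a mean of at least 5 FPKM.

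For the series as a whole, FPKM summed to 501728 in shLuc and 427921 in shTaz, or 85.3%. In all, 461 genes were 2-fold higher and 379 lower, a split that became 310 and 493 with median-ratio scaling, which moved the median of all genes from 0.12 to 0.00, and 294 and 455 with quantile normalization. Wwtr1, which encodes TAZ, was at 23.4 FPKM in shLuc and 15.1 FPKM in shTaz, a difference of -0.60, and 9.36% of genes lay lower. The Wwtr1 difference was -0.91 with the GC trend removed and -0.99 with the GC and length trends removed. The gene listed under the symbol Taz, which encodes tafazzin, was at 13.7 and 9.50 FPKM. Its difference was -0.48, or -0.64 and -0.59 in these 2 settings. Yap1 was higher as deposited, at 8.59 and 12.0 FPKM, a difference of 0.44. That difference was 0.18 with the GC trend removed. It was 0.07 with both trends removed, below the median of all genes in that setting (0.12). The labels do not state the sequence targeted, and the extent of the knockdown was not tested. Among neuroendocrine genes, which mark small cell lung cancer, Neurod1, Chga, Chgb and Calca are not listed and Syp, Insm1 and Ddc were under 1 FPKM, while Ncam1 was at 39.8 and 43.8 FPKM and Uchl1 at 10.1 and 1.51 FPKM.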

How the data were processed

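RNA from frozen subcutaneous tumors was sequenced. Per the submitters' processing notes, the authors used Trim Galore and TopHat with the mm10 genome. Versions, the FPKM program, the annotation and the strand setting are not given in the sources used here. The authors deposited FPKM values, 1 column per group, and the headings match a label shared by both samples of a group. How the 2 samples were combined into a column is not stated. The table holds no gene at 0 in both. Reads of antisense genes that overlap Notch3, Abcc9 and Mcam cannot be told apart without strand. Depth is unknown: in a search for whole-read steps, at most 26.7% (shLuc, 1245 low values) and 26.9% (shTaz, 1081) came within 0.1 of a whole read, against 20% by chance for a single step.

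The members and the lists were chosen with earlier results of these data known. Every member was to be named, and of the Notch, PDGF, channel and HIGD genes those needed to describe the group. Of other lists, up to 4 genes past 2-fold, or else the 2 that differed most, were to be named, and further genes were picked after their values were seen. The planned limma test was for values per sample and was not run. Genes needed a mean of at least 1 FPKM, and the pseudocount was 1. The longest GENCODE M21 transcript of mm10 gave length and GC content, for 90.5% of the 11650 genes. Trends were removed by lowess (span 0.3, statsmodels 0.14.6), keeping the median, and the calculation was tested on simulated data. Upstream sequences are from RefSeq, GRCm38.p6.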

Additional observations from a re-analysis of the deposited data

How the results depend on the processing

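The count of 3 members that were 2-fold lower was 5 with a pseudocount of 0.1 FPKM and 0 when a mean of 5 FPKM was required, a setting that keeps only Rgs5, Pdgfrb, Mcam and Anpep. In that setting 2 members lay below the median of all genes, against 7 as deposited. The count of 1 member 2-fold higher, Rgs5, was 0 with quantile normalization (difference 0.998), with the GC trend removed (0.76) and with the length and GC trends removed (0.73). The cause was not tested. In the other 18 combinations of these 3 counts with the 8 alternatives each count stayed within 1.5 times its value. Anpep was at -0.13 with median-ratio scaling and 0.14 with the GC trend removed, and so has no stable sign. Removal of both trends together was chosen after seeing the data. No paired analysis was possible because the columns carry no replicate number, and no replicate could be left out. Depth is unknown, and values under 1 FPKM, such as Heyl in shTaz, have no counting interval.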

Other observations

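Rgs5 belongs to a family of regulators of G protein signaling, of which 15 of 18 genes on the list are in the table and 11 were tested. In this family 2 were 2-fold higher, where 3.96% of all genes were, and 0 were 2-fold lower, where 3.25% were. The median difference was 0.19. Rgs5 was chosen with its value known, so no direction of the family is read from this count. Besides Rgs5, the gene past 2-fold was Rgs1, a lymphoid and myeloid member, at 0.991 FPKM in shLuc and 3.27 FPKM in shTaz. Rgs1 passed the filter only through the shTaz column. Its transcript has a GC content of 35.9%, and its difference of 1.10 was 0.58 with the GC trend removed. Rgs2 was at 7.78 and 13.5 FPKM and Rgs4 at 4.67 and 6.48 FPKM, both chosen after their values were seen. Rgs3 was lower, at 4.12 and 2.73 FPKM.

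The relatives of Higd1b, which encode mitochondrial proteins of the respiratory chain, were abundant and closer between the columns. Higd1a, induced by low oxygen, was at 16.5 FPKM in shLuc and 16.6 FPKM in shTaz, and Higd2a was at 73.7 and 57.6 FPKM. Higd1c is not listed.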
